A study of Mus musculus with 16 samples.

Results

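The growth hormone and insulin-like growth factor (IGF) axis was examined through 10 genes, taken from the deposited count table by their gene names (Ghr, Stat5b, Igf1, Igfals, Socs2, Cish, Bcl6, Igfbp1, Igfbp2 and Mup20), out of 55421 gene IDs in the table. All 10 passed the filter on low counts, as did 23018 genes in all. Liver RNA of male C57BL/6 mice had been sequenced in bulk, in 4 groups of 4 libraries that combine genotype (control or HIRA KO) with time (before or after the liver regenerated). The HIRA protein helps to assemble the histone variant H3.3 into nucleosomes when DNA is not being copied. The comparisons ask which genes differ when hepatocytes lack HIRA, in resting liver and in liver that has regrown.

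All mice received an adeno-associated virus (AAV8) whose Tbg promoter restricts expression to hepatocytes. HIRA KO livers came either from HIRA fl/fl mice given AAV8-Tbg-Cre or from wildtype mice given AAV8-Tbg-saCas9 with a guide RNA against HIRA. Controls were wildtype mice given the same Cre virus, or the saCas9 virus with a guide against Rosa26, so every control also carried a nuclease or recombinase. Virus was injected at 6 months of age, and the left lateral and median lobes were resected 4 weeks later and served as the tissue before regeneration. The remaining liver was taken 5 days after resection and served as the tissue after regeneration, so lobe and time changed together and cannot be told apart. The labels gave 2 libraries of each deletion approach per group, but the columns of the tables name only the genotype and the time, so the approach and the mouse of a given library are not known here, and library numbers are names only. Whether libraries of a group share anything besides the group is not given by the columns, and p-values measure the spread between these libraries. By the study's methods, resected and regrown tissue came from the same mice. Which libraries share a mouse is not known, so tests of after against before treat all libraries as independent.

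Growth hormone reaches the liver in pulses and binds its receptor, which activates the kinase JAK2 and then the transcription factor STAT5B. STAT5B switches on Igf1 and Igfals, whose products circulate together with IGF binding proteins, and also the feedback inhibitors Socs2 and Cish, whose transcripts rise and fall with each pulse. In male mice the pulses maintain the male pattern of liver gene expression, including major urinary proteins such as Mup20, while BCL6 is a repressor of female-biased genes that growth hormone itself represses.

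Of the 10 genes, 8 had a RefSeq promoter entry (14 windows on GRCm38.p6, from 250 bases before to 50 after each start), and these are shown because the axis is read out through STAT5 and, for Igfbp1, through insulin. The palindrome TTCNNNGAA, the letters that STAT5 dimers are known to prefer, occurred in windows of Cish, Bcl6 and Igfals, 3 of the 8 genes. Of all 32851 promoter windows 8.30% held it, a share of windows and not of genes, and some genes have several windows. The letters CAAAACA, the core of the insulin response element, occurred on either strand in the Igfbp1 window and in 6.28% of all windows. Capitals mark the matches, which did not overlap each other. Relative to the start they begin at 1 and 12 in Cish, at -118 in the first and at -168, -122 and -88 in the second Bcl6 window, at -236 and -58 in the Igfals windows, and at -108 in Igfbp1. A match describes the letters only.
Cish, chr9:107296639-107296678, plus strand: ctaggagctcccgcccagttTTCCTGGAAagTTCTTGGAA
Bcl6, chr16:23988942-23988990, minus strand: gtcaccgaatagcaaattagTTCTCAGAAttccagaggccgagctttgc
Bcl6, chr16:23981343-23981471, minus strand: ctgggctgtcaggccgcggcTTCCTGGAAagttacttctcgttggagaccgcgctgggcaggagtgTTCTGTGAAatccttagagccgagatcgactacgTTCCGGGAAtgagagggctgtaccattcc
Igfals, chr17:24877594-24877636, plus strand: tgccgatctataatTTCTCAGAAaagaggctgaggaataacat
Igfals, chr17:24878153-24878201, plus strand: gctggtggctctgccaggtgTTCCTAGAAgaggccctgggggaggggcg
Igfbp1, chr11:7197659-7197705, plus strand: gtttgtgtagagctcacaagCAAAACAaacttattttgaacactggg

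Total counts ran from 15103059 to 21738619 per library. Expression is given as CPM, counts scaled to the TMM-normalised library size. Hira, the deleted gene, stood at 5.21 to 6.18 CPM in control and 3.13 to 4.38 CPM in HIRA KO before regeneration, and at 4.99 to 6.29 and 3.04 to 4.56 CPM after it. The HIRA KO mean was thus 61.4% of control before and 62.0% after, with no overlap between libraries. The tissue was whole liver, which also holds cells the promoter does not target, and the source of the remaining Hira transcript was not tested. Libraries 1 and 2 of HIRA KO, at both times, stood apart: on the second principal component (26.5% of the variance) they lay between -47.4 and -36.2, and the other 12 libraries between -1.14 and 31.2. Results are therefore given with and without these 4 libraries. Without them HIRA KO holds only libraries 3 and 4 at each time, while control keeps all 4. Calls lost in HIRA KO and kept in control in that fit therefore do not compare the genotypes. The rule took only HIRA KO libraries outside the control range of the second component, so the fit drops those farthest from control on it. Smaller differences between genotypes in that fit can follow from this rule and are no independent check. Of 8 hepatocyte markers 7 were in the table under the names searched, all detected in every library. Their mean log2(CPM + 1) was 11.75 to 11.86 in control and 11.20 to 11.78 in HIRA KO before regeneration, with libraries 1 and 2 lowest at 11.20 and 11.31, while their summed level was 98633 to 111677 CPM in control and 111265 to 155501 CPM in HIRA KO. The bile acid transporter gene Slc10a1 stood at 45.1 and 110.4 CPM in libraries 1 and 2 of HIRA KO, 574 and 672 CPM in libraries 3 and 4, and 658 to 768 CPM in control before regeneration. No hepatocyte marker was called between genotypes, and Ttr was called lower after regeneration in HIRA KO. Without the 4 libraries Ttr was not called, and Slc10a1 was called lower after regeneration in both genotypes. Of 8 endothelial markers, 1 was called higher (Cdh5) and 2 lower (Oit3 and Kdr) after regeneration in each genotype. Without the 4 libraries Cdh5 was not called in HIRA KO, and Stab1 was called lower in both genotypes. The 8 endothelial markers summed to 182 to 281 CPM after against 240.2 to 336 CPM before over all libraries. Summed stellate cell and fibroblast markers ran from 231 to 259 CPM in control and from 259 to 666 CPM in HIRA KO before regeneration, with libraries 1 and 2 at 666 and 499 CPM, and cholangiocyte markers reached 174 and 109.6 CPM in the same pair against 49.2 to 75.3 CPM in control. The 8 Kupffer cell markers and the 8 proliferation markers were all called higher after regeneration in both genotypes, and 7 of 8 Kupffer and at least 6 of 8 proliferation markers without the 4 libraries. Kupffer markers summed to 129.9 to 367 CPM in control and 187 to 225 CPM in HIRA KO before regeneration, and to 679 to 850.3 and 635 to 979.9 CPM after it. Proliferation markers summed to 4.38 to 11.4 and 6.19 to 22.9 CPM before, and to 41.7 to 309 and 47.3 to 284 CPM after. Of all these markers, the lowest count was 0 for the cholangiocyte gene Cldn4 alone. The part of these markers in the results below was not tested, and in bulk liver fewer cells of a type and less RNA per cell cannot be told apart.

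By length-scaled level (FPKM, fragments scaled by transcript length and sequencing depth, mean ± SD of 4 libraries), Mup20 was far above the other genes in every group, at 9046 ± 4745 in control before regeneration. Igfbp2, at 279 ± 113, Igf1, at 212 ± 18.5, Ghr, at 169 ± 12.3, and Igfbp1, at 161 ± 104, followed in that order, then Igfals at 33.3 ± 1.96. Stat5b, at 12.6 ± 0.944, Bcl6, at 9.83 ± 7.73, Cish, at 6.19 ± 5.07, and Socs2, at 3.88 ± 3.14, were lowest. The ranges of Igfbp2 and Igf1 overlapped, as did those of Ghr and Igfbp1 and of each neighbouring pair among Stat5b, Bcl6, Cish and Socs2. In HIRA KO after regeneration Igfals, at 43.7 ± 9.62, stood above Igfbp1, at 23.7 ± 21.6, with overlapping ranges.

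The receptor and its transcription factor were lower after regeneration in both genotypes, whereas none of the 10 genes was called between HIRA KO and control at either time. With edgeR's quasi-likelihood test, adjusted over all 23018 genes and called under 0.05, 2 of the 10 genes (Ghr and Stat5b) were lower after regeneration in control, where 10.2% of all genes tested were called and 4.17% were called lower. In HIRA KO 3 of 10 were lower (Ghr, Stat5b and Igfbp1), where 12.0% of all genes were called and 5.53% called lower. Between genotypes 0 of 10 were called before regeneration, against 0.0391% of all genes, and 0 of 10 after it, against 0.491%. At an unadjusted p under 0.05, 5 of 10 passed before (1 higher, 4 lower), against 13.2% of all genes, and 2 of 10 after (1 higher, 1 lower), against 15.8%. DESeq2 called 0 of 10 before (2.49% of genes with an adjusted p) and 2 of 10 after (Stat5b lower and Igfals higher, 5.93%), and limma on log2(FPKM + 1) called 0 of 10 at both times (0.0217% and 0.265%). For after against before in control, DESeq2 called Igfbp1 lower as well as Ghr and Stat5b, 3 of 10 against 18.7% of genes, and limma called Ghr alone, 1 of 10 against 8.19%. In HIRA KO both called the same 3 of 10 as edgeR, against 20.2% and 11.1%. The median log2 fold change of the 10 genes, HIRA KO over control, was -0.47 before and -0.18 after, against 0.01 and 0.02 over all genes tested. For after over before it was -0.45 in control and -0.59 in HIRA KO, against 0.00 and 0.02.

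**Figure D1:**
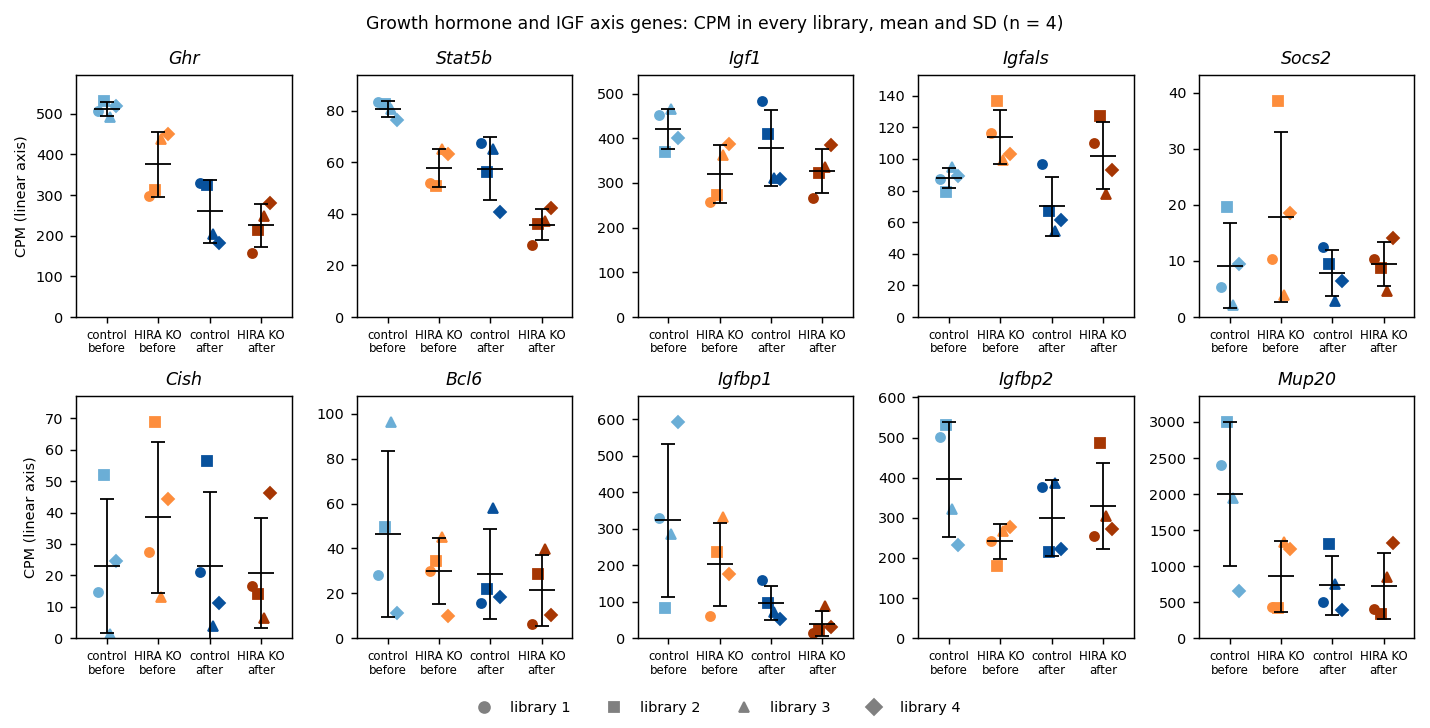
CPM (linear axis from 0) of the 10 genes in each of 16 libraries, by group, where symbols mark the library number and black lines the mean and SD of 4 libraries. Ghr and Stat5b lie lower after than before regeneration in both genotypes with no overlap, while Socs2, Cish, Bcl6, Igfbp1 and Mup20 scatter widely within groups.

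Ghr encodes the growth hormone receptor (chr15:3317760-3583492, minus strand, GRCm38). In the 4 control libraries before regeneration it stood at 506, 532, 491 and 518 CPM, and in HIRA KO at 299, 313, 438 and 451 CPM. After regeneration it stood at 329, 325, 204 and 181 CPM in control and at 158, 214, 249 and 280.1 CPM in HIRA KO. Every library after regeneration was below every library before it within its genotype, and HIRA KO lay below control before regeneration, libraries 1 and 2 lowest, whereas the genotypes overlapped after it. The fitted log2 fold change after over before was -0.98 ± 0.21 (SE), adjusted p = 0.00648 in control and -0.74 ± 0.21 (SE), adjusted p = 0.0296 in HIRA KO. Without the 4 libraries that stood apart the HIRA KO value was -0.75 ± 0.23 (SE), adjusted p = 0.0547, so the call was lost, as it was with only the groups compared and in 4 fits that each left out 1 library (HIRA KO library 3 or 4 before, 1 or 2 after, adjusted p up to 0.105). HIRA KO over control was -0.45 ± 0.21 (SE), adjusted p = 0.371 before, and -0.20 ± 0.20 (SE), adjusted p = 0.914 without those libraries.

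Stat5b (chr11:100780731-100850724, minus strand), the transcription factor that the receptor activates, stood at 83.5, 82.6, 80.8 and 76.5 CPM in control and 52.0, 50.7, 65.2 and 63.4 CPM in HIRA KO before regeneration. The values after it were 67.6, 56.3, 65.2 and 40.8 CPM in control and 27.8, 36.1, 37.3 and 42.2 CPM in HIRA KO. The groups did not overlap before regeneration, and after it a single control library, number 4, fell within the range of HIRA KO. Between genotypes the log2 fold change was -0.48 ± 0.15 (SE), adjusted p = 0.214 before and -0.68 ± 0.15 (SE), adjusted p = 0.0523 after, where DESeq2 gave -0.66 with adjusted p = 0.0035. Without the libraries that stood apart it was -0.53 ± 0.16 (SE), adjusted p = 0.222 after, whereas it was called when HIRA KO library 3 or 4 alone was left out (lowest adjusted p = 0.0284). After over before, the log2 fold change of Stat5b was -0.49 ± 0.15 (SE), adjusted p = 0.0443 in control and -0.69 ± 0.15 (SE), adjusted p = 0.00726 in HIRA KO, the latter -0.69 ± 0.18 (SE), adjusted p = 0.0218 without those libraries. The control call was lost when any library of control other than number 1 after regeneration was left out, in 7 of 8 fits (adjusted p 0.0299 to 0.106 over the 8 fits). Of the 50-base stretches of Stat5b transcripts 11.0% also occur in Stat5a, so a share of its reads could be counted for either gene.

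Of 10 genes, 3 did not overlap between genotypes before regeneration (Ghr and Stat5b lower, Igfals higher in HIRA KO), where 8.07% of all genes tested did not, and 0 after, where 8.10% did not. After against before, Ghr and Stat5b did not overlap in either genotype, where 19.0% of genes in control and 16.1% in HIRA KO did not.

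**Figure D2:**
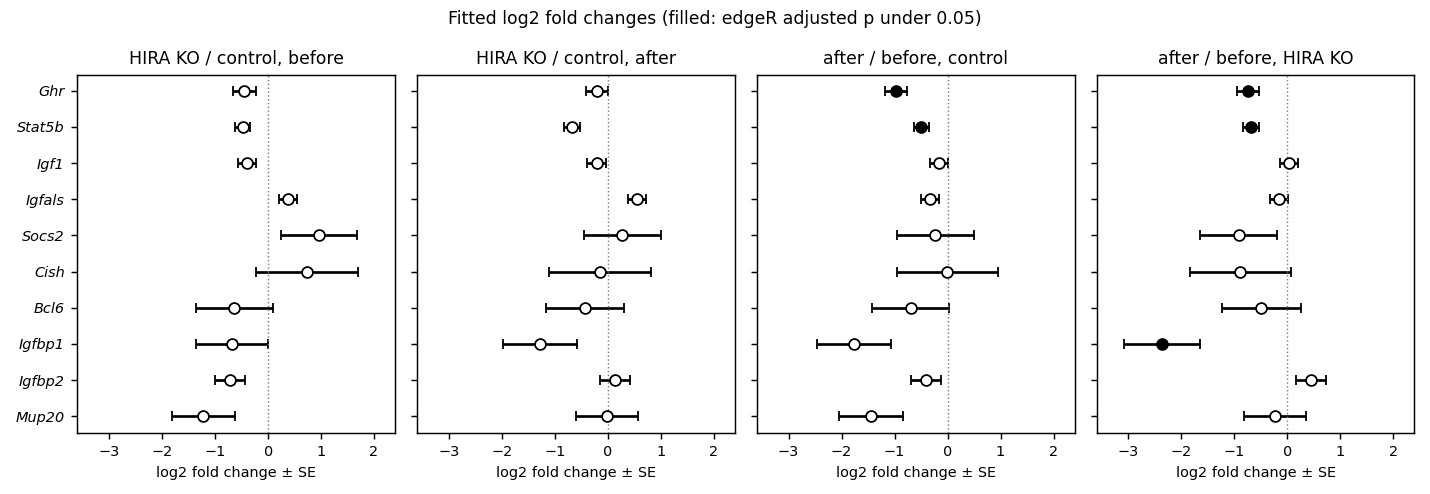
Log2 fold change with its standard error for each gene in 4 comparisons, where filled points passed an edgeR adjusted p under 0.05 and the dotted line marks no difference. Ghr and Stat5b are filled in both comparisons of after with before, and Igfbp1 in that of HIRA KO.

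Of 11 genes of receptor signalling, 2 were called lower after regeneration in each genotype, which were Ghr and Stat5b themselves, 2 were called higher and 7 were not called. The genes called higher were Ptpn1 and Ptpn6, phosphatases that act on JAK and STAT proteins. Ptpn1 had a log2 fold change of 0.72 ± 0.11 (SE, adjusted p = 0.000832) in control and 0.72 ± 0.11 (adjusted p = 0.000701) in HIRA KO, and Ptpn6 0.37 ± 0.09 (adjusted p = 0.0109) and 0.40 ± 0.09 (adjusted p = 0.00739). Over all genes tested, 10.2% were called in control and 12.0% in HIRA KO. Without the libraries that stood apart, 2 of the 4 calls in HIRA KO were kept (Ptpn1 and Stat5b). Between genotypes 0 of 11 were called, with the prolactin receptor Prlr at 0.74 ± 0.28 (adjusted p = 0.291) before regeneration and Stat5a at -0.48 ± 0.20 (adjusted p = 0.237) after it.

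Socs2 and Cish, the feedback inhibitors, and Bcl6 varied widely between libraries of the same group. The SD of log2 CPM within groups was 0.99 for Socs2, 1.41 for Cish and 1.06 for Bcl6, larger than that of 98.7%, 99.6% and 99.0% of the 9722 genes with a mean of at least 5 CPM, whose median was 0.19. Cish (chr9:107296026-107302784) stood at 14.7, 51.8, 1.43 and 24.5 CPM in control and 27.4, 69.0, 13.3 and 44.2 CPM in HIRA KO before regeneration. After it, Cish stood at 20.9, 56.4, 3.82 and 11.3 CPM and 16.5, 14.1, 6.54 and 46.4 CPM. Its control libraries before regeneration thus differed up to 36.2 times. Socs2 (chr10:95385362-95417180) ranged from 2.18 to 19.6 CPM in control and 3.87 to 38.6 CPM in HIRA KO before regeneration, and from 2.89 to 12.5 CPM and 4.65 to 14.0 CPM after it. Bcl6 (chr16:23965052-23988852) ranged from 11.0 to 96.5 CPM and 9.90 to 45.3 CPM before and from 15.7 to 58.1 CPM and 6.44 to 39.9 CPM after.

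Across these libraries the 3 genes varied together. Library 3 was the lowest of its group for both Socs2 and Cish in 4 of 4 groups and the highest for Bcl6 in 4 of 4 groups, a pattern noticed in the values and not tested. In control before regeneration, library 3 held 2.18 CPM of Socs2, 1.43 CPM of Cish and 96.5 CPM of Bcl6. Over the 16 libraries, after removing group means, the Pearson correlation of log2 CPM was 0.88 between Socs2 and Cish, -0.58 between Cish and Bcl6, and -0.51 between Socs2 and Bcl6. These are descriptions over libraries that share mice in a way the columns do not give. None of the 3 genes was called in any comparison. For Socs2 the log2 fold change HIRA KO over control was 0.96 ± 0.72 (SE), adjusted p = 0.61 before regeneration, for Cish 0.73 ± 0.96 (SE), adjusted p = 0.797, and for Bcl6 -0.64 ± 0.73 (SE), adjusted p = 0.762. Cish overlaps the antisense gene Gm17041 and Gm17040 on the opposite strand (7.46% and 4.07% of its exon bases), and the counting strand is not given in the sources used here.

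**Figure D3:**
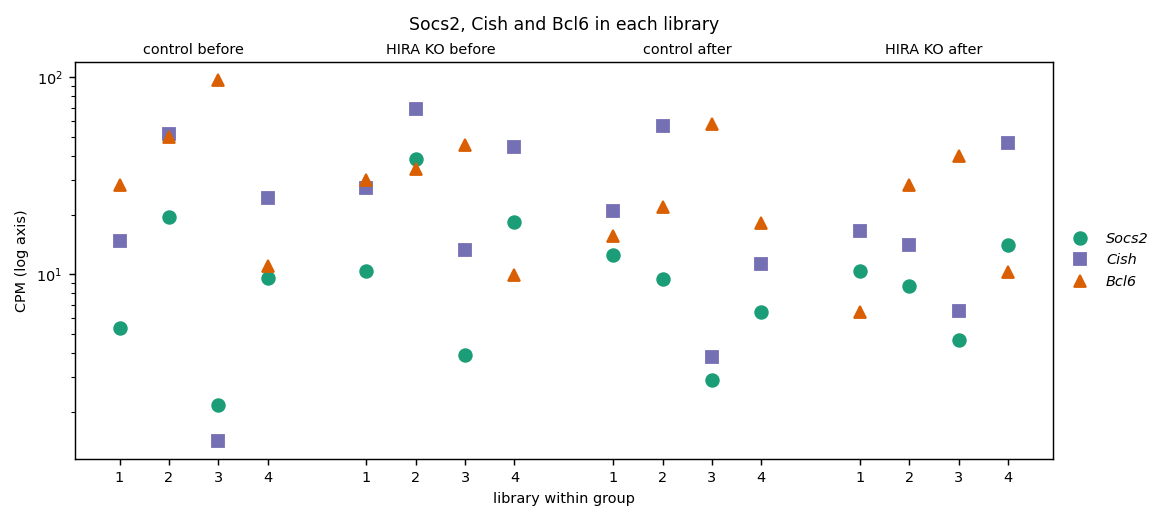
CPM (log axis) of Socs2, Cish and Bcl6 in each library, grouped by genotype and time. Within each group library 3 has the lowest Socs2 and Cish and the highest Bcl6.

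Among the 8 SOCS family genes, Socs2 and Cish included, 1 was called higher and 1 lower after regeneration in control and 1 lower in HIRA KO. Over all genes tested the share called was 10.2% in control and 12.0% in HIRA KO. Socs7 was lower by a log2 fold change of -0.73 ± 0.15 (SE, adjusted p = 0.00542) in control and -0.63 ± 0.15 (adjusted p = 0.0131) in HIRA KO, and Socs6 was higher in control, 0.37 ± 0.10 (adjusted p = 0.0233). Between genotypes 0 of 8 were called, with Socs1 at -1.58 ± 0.90 (adjusted p = 0.475) before and Socs5 at 0.79 ± 0.25 (adjusted p = 0.128) after regeneration. Bcl6 was listed with other regulators of sex-biased genes. Of these Nr1d1, a circadian repressor, was lower after regeneration in both genotypes, -1.19 ± 0.35 (adjusted p = 0.0451) in control and -1.29 ± 0.35 (adjusted p = 0.0297) in HIRA KO. In HIRA KO, Cux2, a female-specific repressor of male-biased genes, was higher after regeneration, 2.71 ± 0.83 (adjusted p = 0.0487), at 0.569 to 12.2 CPM after against 0.501 to 1.60 CPM before. Without the libraries that stood apart, neither Nr1d1 nor Cux2 was called in HIRA KO. Between genotypes neither was called at either time, with Cux2 at 3.42 ± 0.87 (adjusted p = 0.0867) after regeneration.

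Igf1, the circulating growth factor itself (chr10:87858265-87937042), was not called in any comparison. It stood at 422 ± 44.7 CPM (SD, n = 4) in control and 319.7 ± 64.8 CPM in HIRA KO before regeneration, and at 378 ± 84.9 CPM and 327 ± 48.7 CPM after it. Ranges overlapped in each comparison, and libraries 1, 2 and 3 of HIRA KO before regeneration, at 256, 273 and 363 CPM, lay below all 4 control libraries, the lowest of which held 370.04 CPM. The log2 fold change HIRA KO over control was -0.40 ± 0.17 (SE), adjusted p = 0.343 before by counts, but -0.05 by log2(FPKM + 1), and -0.17 ± 0.17 (SE), adjusted p = 0.917 without the libraries that stood apart. After over before it was -0.16 ± 0.17 (SE), adjusted p = 0.66 in control and 0.032 ± 0.17 (SE), adjusted p = 0.932 in HIRA KO, whereas Ghr and Stat5b were lower. The difference between Igf1 and those genes was not tested. By Pearson correlation of log2(CPM + 1) over 16 libraries, the genes most like Igf1 among 9721 were Phka2 (0.92), Extl2 (0.92) and Snapin (0.92), given as a description.

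Igfals, the acid-labile subunit that holds IGF-1 in a long-lived complex in blood (chr17:24865997-24882010), stood higher in HIRA KO at both times without passing the test. Before regeneration it stood at 87.6, 79.4, 94.9 and 89.3 CPM in control and 117, 137, 99.1 and 103 CPM in HIRA KO. The values after it were 97.0, 67.2, 54.5 and 61.4 CPM and 109.9, 127, 78.1 and 93.3 CPM. Every HIRA KO library was above every control library before regeneration, with libraries 1 and 2 highest, and after it the groups overlapped. The log2 fold change was 0.38 ± 0.17 (SE), adjusted p = 0.363 before and 0.54 ± 0.17 (SE), adjusted p = 0.137 after, where DESeq2 gave 0.57 with adjusted p = 0.0425. Without the libraries that stood apart it was 0.21 ± 0.17 (SE), adjusted p = 0.896 before and 0.29 ± 0.17 (SE), adjusted p = 0.595 after. After over before in control it was -0.33 ± 0.17 (SE), adjusted p = 0.273, and it was called lower only when control library 1 after regeneration was left out (-0.53, adjusted p = 0.0426).

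Igfbp1, a binding protein gene that insulin represses and fasting induces (chr11:7197782-7202546), was called lower after regeneration in HIRA KO by edgeR, and in both genotypes by DESeq2. It stood at 331, 82.1, 285 and 593 CPM in control and 61.8, 237, 333 and 176 CPM in HIRA KO before regeneration. After it, the libraries held 160.5, 96.5, 72.1 and 52.8 CPM in control and 15.0, 22.5, 89.3 and 30.5 CPM in HIRA KO. Before and after overlapped in both genotypes, through library 2 of control and library 1 of HIRA KO before regeneration, which were low. The log2 fold change was -1.76 ± 0.70 (SE), adjusted p = 0.143 in control, where DESeq2 gave -1.76 with adjusted p = 0.0465, and -2.36 ± 0.71 (SE), adjusted p = 0.0493 in HIRA KO. The HIRA KO call was lost without the libraries that stood apart, -2.09 ± 0.93 (SE), adjusted p = 0.218, with no filter on low counts, with only the groups compared, and in 6 of 8 fits that each left out 1 library (all but library 1 before and library 3 after), with a log2 fold change between -3.15 and -2.01. Feeding state at sampling is not in the labels. Igfbp2, another binding protein (chr1:72824503-72852474), stood at 396 ± 143 CPM (SD, n = 4) in control and 242 ± 43.5 CPM in HIRA KO before, and at 300.0 ± 94.6 CPM and 329.6 ± 107 CPM after. Its log2 fold change HIRA KO over control was -0.71 ± 0.28 (SE), adjusted p = 0.313 before and 0.14 ± 0.28 (SE), adjusted p = 0.864 after, and the interaction, the difference between those values, was 0.85 ± 0.40 (SE), adjusted p = 0.732.

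Of 10 IGF ligands and carriers, Igf1, Igfals, Igfbp1 and Igfbp2 included, 1 was called lower in control and 2 lower in HIRA KO after regeneration. The share of all genes tested that was called lower was 4.17% in control and 5.53% in HIRA KO. Igfbp3, the main carrier of IGF-1 in blood, was lower in both, -1.26 ± 0.28 (SE, adjusted p = 0.0111) in control and -1.35 ± 0.28 (adjusted p = 0.00695) in HIRA KO. None of the 10 was called between genotypes, although Igfbp5 stood at 9.18 to 64.1 CPM in HIRA KO against 1.67 to 6.81 CPM in control before regeneration (3.05 ± 0.79, adjusted p = 0.167) and at 7.79 to 47.4 against 1.96 to 6.53 CPM after it (2.68 ± 0.78, adjusted p = 0.127). Of 5 proteases of binding proteins and their inhibitors, Htra1 alone was called, lower after regeneration in HIRA KO (-1.01 ± 0.31, adjusted p = 0.0452). Of 5 receptors and substrates of IGF and insulin, 2 were called lower in HIRA KO after regeneration, the insulin receptor Insr (-0.44 ± 0.12, adjusted p = 0.024) and the substrate Irs2 (-1.70 ± 0.49, adjusted p = 0.0404), and 0 in control. Without the libraries that stood apart, Igfbp3, Htra1, Insr and Irs2 were not called in HIRA KO, while Igfbp6 was called higher. Igf2 was called higher in control, where the call of Igfbp3 was kept. In control, Insr and the IGF receptor Igf1r were then called lower, so 2 of the 5 receptors and substrates were called, against 0 in HIRA KO. That fit keeps fewer HIRA KO than control libraries, so these counts do not compare the genotypes. For the interaction, which compares the genotypes, 0 genes of these lists were called.

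In a list of 8 FOXO factors and liver genes that insulin represses, which holds Igfbp1 and Irs2, 4 genes were called lower after regeneration in control and 7 in HIRA KO. Neither Igfbp1 nor Irs2 was among the 4 in control, 0 were called higher, and the median log2 fold change was -1.07 and -0.99. Of all genes tested, 4.17% were called lower in control and 5.53% in HIRA KO. G6pc, the last enzyme of glucose release, fell from 547 to 1253 CPM over control libraries before to 85.1 to 178 CPM after (-2.86 ± 0.27, adjusted p = 1.83e-05), and in HIRA KO by a log2 fold change of -2.15 ± 0.26 (adjusted p = 0.000142). Pck1, the entry enzyme of gluconeogenesis, fell by -1.68 ± 0.29 (adjusted p = 0.00183) in control and -1.21 ± 0.29 (adjusted p = 0.012) in HIRA KO. Foxo3 and Foxo4 were lower in both genotypes as well, Foxo3 by -0.80 ± 0.14 (adjusted p = 0.00164) and -0.76 ± 0.14 (adjusted p = 0.0022). Without the libraries that stood apart, 5 of the 7 calls in HIRA KO were kept (all but Igfbp1 and Irs2), and 6 genes were called in control. Between genotypes 0 of the 8 were called at either time.

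Mup20, a major urinary protein made under pulsatile growth hormone in males (chr4:62050234-62054158, minus strand), was not called in any comparison. It stood at 2405, 3005, 1946 and 657 CPM in control and 437, 415, 1340.4 and 1232 CPM in HIRA KO before regeneration. The values after it were 500.2, 1302, 754 and 385 CPM and 403, 341, 845 and 1321 CPM. Libraries 1 and 2 of HIRA KO were the lowest of their group at both times, and control library 4 before regeneration was low as well. The log2 fold change HIRA KO over control was -1.23 ± 0.59 (SE), adjusted p = 0.401 before and -0.016 ± 0.59 (SE), adjusted p = 0.994 after, and -0.64 ± 0.64 (SE), adjusted p = 0.918 and 0.56 ± 0.61 (SE), adjusted p = 0.819 without the libraries that stood apart. After over before it was -1.45 ± 0.60 (SE), adjusted p = 0.158 in control and -0.24 ± 0.59 (SE), adjusted p = 0.846 in HIRA KO. Shared sequence limits these values, since 50.5% of the 50-base stretches of Mup20 occur in other genes, 50.1% in a Mup gene. The genes most like Mup20 over 16 libraries were Hsd3b5 (Pearson 0.90), Mup12 (0.90) and Slc2a5 (0.85), as a description.

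The other major urinary protein genes split the HIRA KO libraries in the same way. Summed over 22 Mup genes, Mup20 included, expression was 8111 to 14641 CPM in control before regeneration, and in HIRA KO 1154 and 1434 CPM in libraries 1 and 2 against 8943 and 8409 CPM in libraries 3 and 4. After regeneration it was 1937 to 4443 CPM in control, 739 and 713 CPM in libraries 1 and 2 of HIRA KO, and 4336 and 4888 CPM in libraries 3 and 4. Mup3, the highest of them, ran from 569 to 5049 CPM in HIRA KO and from 5729.7 to 8103 CPM in control before regeneration. Of 22 genes 0 were called in any comparison. Without the 4 libraries, whose spread entered the common fit, 11 of 22 were called lower after regeneration in control and 2 of 22 in HIRA KO (Mup3 and Mup22), none of them Mup20. In that fit 16.4% of all genes were called in control, 7.48% lower, and 9.54% in HIRA KO, 4.18% lower, so calls over all genes were more frequent in control and less frequent in HIRA KO than with all libraries. The reads of Mup genes are uncertain because members of the family share much of their sequence.

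**Figure D4:**
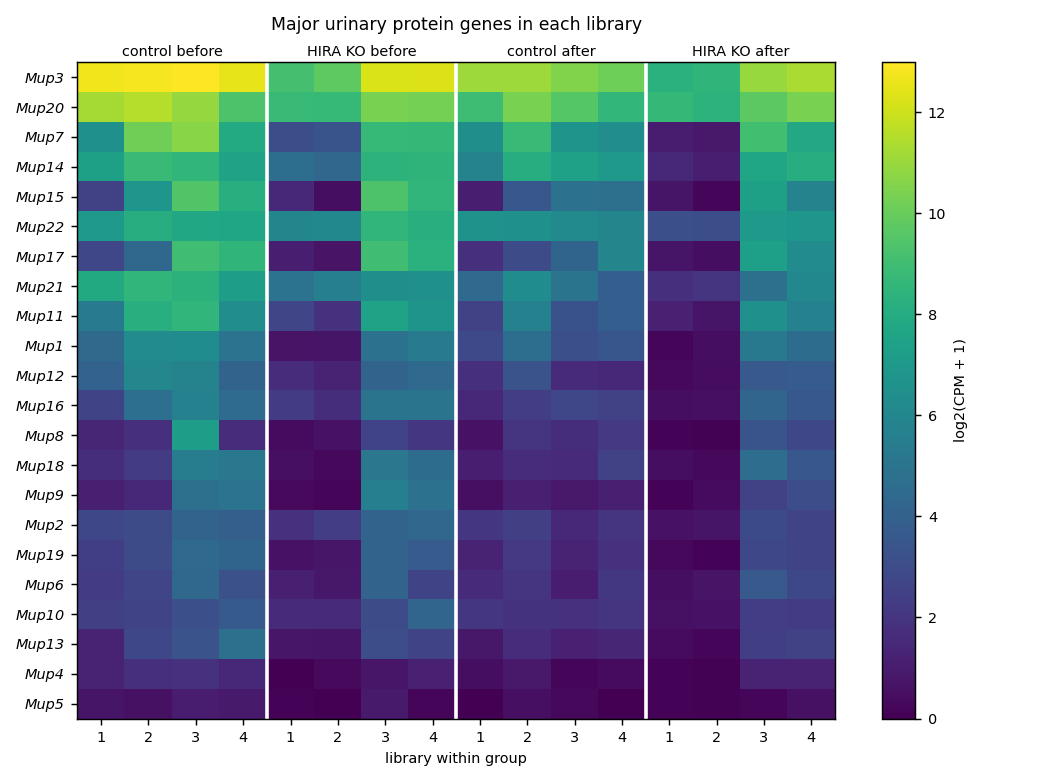
Expression of 22 Mup genes, as log2(CPM + 1) by colour, in 16 libraries grouped by genotype and time, with genes ordered by mean level. Libraries 1 and 2 of HIRA KO are dark for most genes at both times, and libraries 3 and 4 resemble the control columns more closely.

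Of 11 further male-biased genes that depend on growth hormone pulses, Cyp2d9 was called lower after regeneration in control (-1.21 ± 0.23, adjusted p = 0.00322). In HIRA KO 0 were called. Of all genes tested, 4.17% were called lower in control and 5.53% in HIRA KO. Without the libraries that stood apart, 4 were called lower in control and 0 in HIRA KO, against 7.48% and 4.18% of all genes. For the interaction 0 of the 11 were called. Selenbp2 had the widest difference between genotypes before regeneration (-3.29 ± 0.93, adjusted p = 0.196), at 37.2 to 66.0 CPM in HIRA KO within the control range of 16.1 to 1152 CPM. Of 18 female-biased genes, Cux2 included, 5 were called higher after regeneration in each genotype and 0 lower. Of all genes tested, 10.2% were called in either direction in control and 12.0% in HIRA KO. Without the libraries that stood apart, 5 of the 5 calls in control were kept and 0 of the 5 in HIRA KO. A1bg and Fmo2 were then called as well in control, which gave 6 genes higher and 1 lower, and no gene was added in HIRA KO. That fit keeps fewer HIRA KO than control libraries, so these counts do not compare the genotypes. Cyp2c40 rose from 0.651 to 1.29 CPM before to 4.13 to 10.1 CPM after in control (2.77 ± 0.49, adjusted p = 0.00237), and Cyp2a4, a steroid hydroxylase, from 1.88 to 3.74 CPM to 33.5 to 204 CPM in HIRA KO (5.27 ± 1.40, adjusted p = 0.0292). Cyp3a41a and Cyp3a44 rose in both genotypes from under 1 CPM in every library before, and Sult1e1, which inactivates oestrogen, in HIRA KO. Cytochrome genes of these subfamilies are close copies and their reads may be split between them. Summed, female-biased genes stood at 76.2 to 200.1 CPM in control and 219 to 304 CPM in HIRA KO before regeneration, groups that did not overlap, yet 0 of 18 were called between genotypes. The mean sums were 120.3 and 264.0 CPM. Of these, Prlr, which is also in this list, made 67.4 and 112.2 CPM, and Cyp17a1 9.88 and 72.2 CPM. The widest differences were Cyp17a1 before (2.88 ± 0.96, adjusted p = 0.255) and Sult1e1 after regeneration (4.38 ± 1.21, adjusted p = 0.106).

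The response to regeneration was not shown to differ between genotypes. For the interaction 0 of 10 genes of the axis were called, and 0% of all genes tested, with 0 of 10 at an unadjusted p under 0.05, against 6.81% of all genes. DESeq2 called 0 of 10 (0.424% of genes with an adjusted p) and limma on FPKM 0 of 10 (0%). The interaction was 0.24 ± 0.30 (SE), adjusted p = 0.907 for Ghr, -0.20 ± 0.21 (SE), adjusted p = 0.889 for Stat5b, 0.19 ± 0.25 (SE), adjusted p = 0.913 for Igf1 and 1.21 ± 0.83 (SE), adjusted p = 0.814 for Mup20. Standard errors ran from 0.21 to 1.35 over the 10 genes, and even the interaction of Igfbp2 given above did not pass.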

How the data were processed

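According to the study's methods, STAR was the authors' aligner (mm10) and HOMER their counting tool, and the deposited count table holds whole-number counts. The submitters' processing notes name STAR, HTSeq and Cufflinks, with no roles. The deposited FPKM table was made by the authors with a tool not given in the sources used here. Between 4613 and 5667 genes per library had 0 counts and an FPKM, so the tables were not made from the same quantification.

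Genes with at least 10 counts in total were tested with edgeR 4.0.16 (R 4.3.3), TMM scaling, 4 group means over 16 libraries and robust quasi-likelihood tests, and p-values were adjusted by Benjamini-Hochberg. An SE is the size of the log2 fold change over the root of F. Scripts were tested on simulated data. DESeq2 1.42.0 and limma 3.58.1 (FPKM with pseudocounts of 1 and 0.1) were alternatives. Replicate pairs differed by a chi-square of at least 12.4 per degree of freedom, so each was counted as a separate library. Gene coordinates are from GENCODE M21 on GRCm38, which shared 54673 of 55421 gene IDs.

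The members and lists were chosen with earlier results of these data known. All 10 members are named, and of each other list up to 4 called genes with the smallest adjusted p, or else the 2 widest differences at a mean of at least 1 CPM. For Igf1 and Mup20 the 3 most correlated genes with a mean of at least 5 CPM are named. Some genes that this rule names are not reported here.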

Additional observations from a re-analysis of the deposited data

Results flagged for a closer look

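Bcl6 in control after regeneration stood at 15.7, 22.1, 58.1 and 18.3 CPM. Library 3 was far from the others, with a gap to its nearest neighbour of 0.850 of the range of the group. This was 1 of 40 combinations of gene and group examined, and chance flags about 1 in 20. Library 3 of that group also held the lowest Socs2 and Cish.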

How the results depend on the processing

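No paired analysis was possible because the columns of the tables carry a running number that is in no label, and not the replicate numbers of the labels. The fit that leaves out the 4 HIRA KO libraries that stood apart was chosen after seeing the data, by a rule that could take HIRA KO libraries only. The number of genes called was 0 before regeneration between genotypes and 0 for the interaction under every alternative run. Between genotypes after regeneration it was 0, but 2 with DESeq2 and 1 each with no filter on low counts and with filterByExpr, and 0 to 1 when single libraries were left out. For after against before in control it was 2, but 3 with DESeq2 (Igfbp1 added) and 1 with limma on FPKM at either pseudocount (Stat5b lost), and 1 to 3 with single libraries left out. In HIRA KO it was 3, but 2 with no filter on low counts (Igfbp1 lost), and 1 each with only the groups compared and without the libraries that stood apart (Ghr and Igfbp1 lost), and 1 to 3 with single libraries left out. The cause of these differences was not tested.

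Log2 fold changes that changed sign belonged to genes that were not called in the comparison concerned. HIRA KO over control after regeneration, without the libraries that stood apart, was 0.026 for Ghr, 0.19 for Cish, -0.057 for Igfbp2 and 0.56 for Mup20. Cish was 0.17 and 0.31 with FPKM and pseudocounts of 1 and 0.1. Mup20 was 0.0072 with RLE scaling, 0.0072 with DESeq2, 0.0029 with no filter, 0.0083 with filterByExpr and 0.0025 with only the groups compared. For after over before in control, Socs2 was 0.016 with FPKM + 0.1, and Cish 0.011 with filterByExpr and 0.064 and 0.17 with FPKM. In HIRA KO, Igf1 was -0.10 and -0.11 with FPKM and -0.058 without the libraries that stood apart. The interaction with FPKM was -0.012 and -0.012 for Igf1 and -0.014 and -0.084 for Bcl6.

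With single libraries left out, these values also changed sign. For HIRA KO over control before regeneration, Bcl6 ran from -0.97 to 0.0034. For HIRA KO over control after regeneration, Socs2 ran from -0.0052 to 0.60, Cish ran from -0.89 to 0.80, Bcl6 ran from -0.89 to 0.19, Igfbp2 ran from -0.11 to 0.28 and Mup20 ran from -0.47 to 0.41. For after over before in control, Socs2 ran from -0.56 to 0.47 and Cish ran from -0.95 to 0.77. For after over before in HIRA KO, Igf1 ran from -0.060 to 0.16 and Mup20 ran from -0.69 to 0.066. For the interaction, Socs2 ran from -1.37 to 0.018, Cish ran from -1.64 to 0.064 and Bcl6 ran from -0.40 to 0.82.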
